A study of Rattus norvegicus with 12 samples.

Results

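Acta2, Tagln and Myh11 are the contractile genes by which smooth muscle cells are usually recognised, and their counts were followed across all 12 RNA-seq libraries of the series. The genes were chosen by Ensembl identifier and chromosome, as ENSRNOG00000058039 on chromosome 1 for Acta2, ENSRNOG00000017628 on chromosome 8 for Tagln and ENSRNOG00000057880 on chromosome 10 for Myh11. All 3 were found on the stated chromosome, among 32883 genes in the count table. The count table does not pair identifiers with symbols, so the names come with the choice of genes. RefSeq (assembly GRCr8) places genes of these names on the same chromosomes, and spans can be compared across builds. Acta2 spans 12780 bases in the count table and 12781 in RefSeq, Myh11 94764 and 95128, and Tagln 8462 and 5475.

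The cells were primary rat cells of the pulmonary artery, either smooth muscle (PASMC) or endothelial (PAEC), labelled as lung tissue and wild type (WT) in every sample. Each cell type received Nrf2 siRNA (siNRF2), aimed at a transcription factor of the oxidative stress response, or a control siRNA (siControl). The 4 groups, PASMC siNRF2, PASMC siControl, PAEC siNRF2 and PAEC siControl, held 3 libraries each, with 27008812 to 34317763 counts per library. The series calls these biological replicates. Nothing states whether they came from separate animals or cultures, so p-values measure the spread between these libraries, which may be technical. PASMC were kept in a smooth muscle cell medium and PAEC in an endothelial growth medium, so cell type and medium cannot be told apart. The labels state no siRNA dose, time of harvest, rat strain or age of the animals. The sample titles give the cell type, while the tag for cell type is PASMC throughout. Count columns are named by letters that were read as cell type, siRNA and replicate number. No label states this reading, and every direction below rests on it. The level of the siRNA target and other markers of either cell type are not analysed here, for want of symbols.

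Acta2 encodes smooth muscle alpha-actin, the thin-filament actin of contractile smooth muscle. Tagln encodes transgelin (SM22), a small actin-binding protein, and Myh11 encodes the smooth muscle myosin heavy chain, the motor of the thick filament. The 3 genes are known targets of serum response factor with its coactivator myocardin, which act through a DNA element called the CArG box. Smooth muscle cells in culture commonly lower these genes as they shift to a proliferating, matrix-making state. Myh11 is held to be the most restricted of the 3 to smooth muscle, while Acta2 and Tagln also appear in myofibroblasts and in endothelial cells that take on mesenchymal features.

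The sequence just upstream of Acta2 is shown because it holds the classic element through which this gene is studied. RefSeq gives 250 bases before and 50 bases after the gene's start, at chr1:241172454-241172753 of assembly GRCr8, minus strand. It is printed 5′ to 3′, with capitals marking CArG-like boxes, here CC, then 6 bases of which at most 1 is G or C, then GG. The pattern reads as the same pattern on both strands.
Acta2 promoter: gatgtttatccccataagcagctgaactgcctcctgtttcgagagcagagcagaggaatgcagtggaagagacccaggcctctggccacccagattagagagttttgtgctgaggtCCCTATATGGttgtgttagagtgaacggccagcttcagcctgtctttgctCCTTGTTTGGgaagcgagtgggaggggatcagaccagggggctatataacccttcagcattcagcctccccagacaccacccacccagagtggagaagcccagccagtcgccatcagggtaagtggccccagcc
The first box, CCCTATATGG, lay at -134 to -125 from the start and the second, CCTTGTTTGG, at -84 to -75. Each had 1 C or G within its core, and 0 boxes with a core of A and T alone were present. Of 33469 rat promoter windows of this length, 9.42% held at least 1 box by the same rule, 0.846% held at least 2, and 1.64% held at least 1 with no G or C in the core. A match describes these letters only. No promoter sequence was used for Tagln or Myh11.

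The level of the 3 genes by cell type was the first comparison. It also bears on the column letter read as cell type, but not on the letter read as siRNA. The same gap cannot serve both as a check of that first letter and as a separate result. All 3 genes were higher in PASMC than in PAEC under either siRNA. The libraries read as PASMC lay above those read as PAEC for each gene with no overlap. The share of all tested genes without such overlap was not counted. Between the cell types, 55.8% of tested genes were called under siNRF2 and 56.0% under siControl. The cell types differed most for Myh11 and Acta2 and least for Tagln, which kept a sizeable level in PAEC.

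Acta2 had 91.9, 92.0 and 89.3 CPM (counts per library total, rescaled with TMM factors) in PASMC siNRF2, against 5.22, 4.58 and 3.87 CPM in PAEC siNRF2. Under siControl it had 91.8, 102 and 97.3 CPM in PASMC, against 6.63, 6.37 and 8.56 CPM in PAEC. The PAEC levels rest on 112 to 239 counts per library, and the lowest PASMC library had 2967. PASMC exceeded PAEC by a log2 fold change of 4.32 under siNRF2 (SE 0.13, edgeR quasi-likelihood test, two-sided, Benjamini-Hochberg adjusted p = 1.3e-15, n = 3 per group), which is 20-fold. Under siControl the log2 fold change was 3.76 (SE 0.12, edgeR adjusted p = 5e-15), or 13.5-fold.

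Myh11 had 79.9, 83.0 and 78.9 CPM in PASMC siNRF2, against 3.45, 3.72 and 3.77 CPM in PAEC siNRF2. Under siControl it had 73.7, 56.5 and 70.1 CPM in PASMC, against 4.34, 4.11 and 3.76 CPM in PAEC. The 6 PAEC libraries held 92 to 123 counts of this gene each, so the myosin transcript was low there but counted in every library. The log2 fold change between PASMC and PAEC was 4.46 under siNRF2 (SE 0.12, edgeR adjusted p = 5e-16) and 4.03 under siControl (SE 0.12, adjusted p = 1.8e-15), the largest of the 3 genes in both.

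Tagln had 225, 210 and 202 CPM in PASMC siNRF2, against 32.6, 25.3 and 35.9 CPM in PAEC siNRF2. Under siControl it had 154, 158 and 173 CPM in PASMC, against 37.5, 46.3 and 44.0 CPM in PAEC. The transgelin gene drew the most counts of the 3 in both cell types and differed least between them. Its log2 fold change between PASMC and PAEC was 2.76 under siNRF2 (SE 0.11, edgeR adjusted p = 1.8e-13) and 1.93 under siControl (SE 0.11, adjusted p = 2.4e-11), or 6.77-fold and 3.80-fold.

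Differences between these cell types were common, as 55.8% of 14584 genes tested were called under siNRF2 and 56.0% under siControl, with 28.1% and 28.3% called higher in PASMC. A call alone therefore does not set the 3 genes apart, and their sizes were read against all tested genes. Under siControl, 2.35% of tested genes had a higher PASMC over PAEC fold change than Myh11, 2.61% higher than Acta2 and 7.34% higher than Tagln. Under siNRF2 the shares were 2.46%, 2.61% and 5.28%. Median log2 differences were 4.32 under siNRF2 and 3.76 under siControl for the 3 genes, against 0.008 and 0.032 over all genes tested. Scaled by library totals without TMM factors, the median of all genes moved by 0.44 on the log2 scale towards PASMC, and the 3 genes moved with it.

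**Figure D1:**
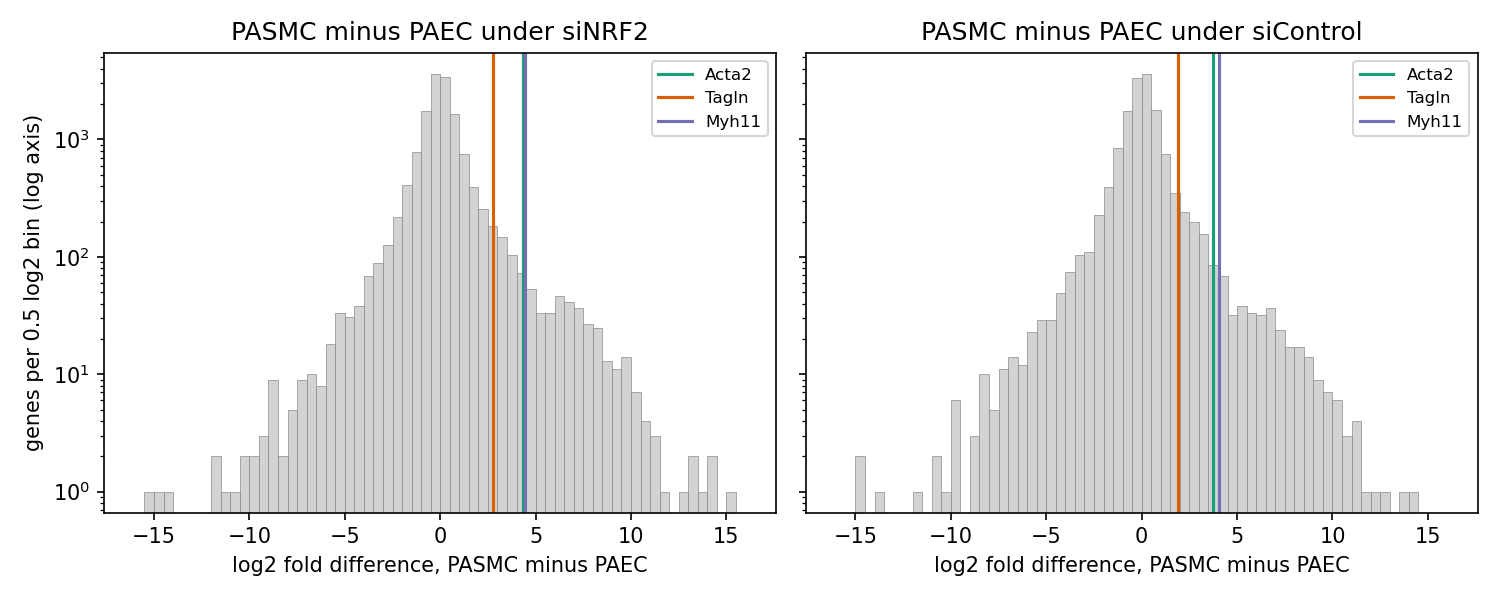
Distribution over the 14584 tested genes of the log2 fold difference between PASMC and PAEC, under siNRF2 (left) and siControl (right), with lines at Acta2, Tagln and Myh11. The vertical axis is the number of genes per 0.5 log2 bin on a log axis; Tagln lies at 2.76 and 1.93, and the other 2 genes lie at 3.76 or above.

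Levels were then compared between the genes per length of exon, as RPKM (CPM per kilobase of exon). In PASMC siNRF2, Tagln averaged 169 ± 9.17 RPKM, Acta2 65.4 ± 1.07 and Myh11 12 ± 0.321 (mean ± SD, n = 3). In PASMC siControl they averaged 129 ± 7.94, 69.8 ± 3.80 and 9.98 ± 1.36 RPKM. In PAEC siNRF2 the RPKM means were 25 ± 4.34, 3.27 ± 0.485 and 0.545 ± 0.0254, and in PAEC siControl 34 ± 3.64, 5.17 ± 0.857 and 0.608 ± 0.0433. The order Tagln, Acta2, Myh11 held in each of the 12 libraries.

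The 3 genes were also placed among all tested genes by level per length. By RPKM, Tagln ranked 379 to 404 of 14584 genes in PASMC siNRF2 and 450 to 537 in PASMC siControl, where rank 1 is the highest level. Acta2 ranked 1112 to 1148 in PASMC siNRF2 and 1013 to 1071 in PASMC siControl. Myh11 ranked 5727 to 5935 and 6170 to 7148 in the same groups. In PAEC the ranks of Tagln were 2933 to 3949 under siNRF2 and 2333 to 2870 under siControl, and those of Acta2 9339 to 9969 and 8053 to 8855. Myh11 ranked 12260 to 12354 in PAEC siNRF2 and 12217 to 12332 in PAEC siControl, near the low end. In bulk libraries, fewer cells with a transcript and less transcript per cell cannot be told apart.

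**Figure D2:**
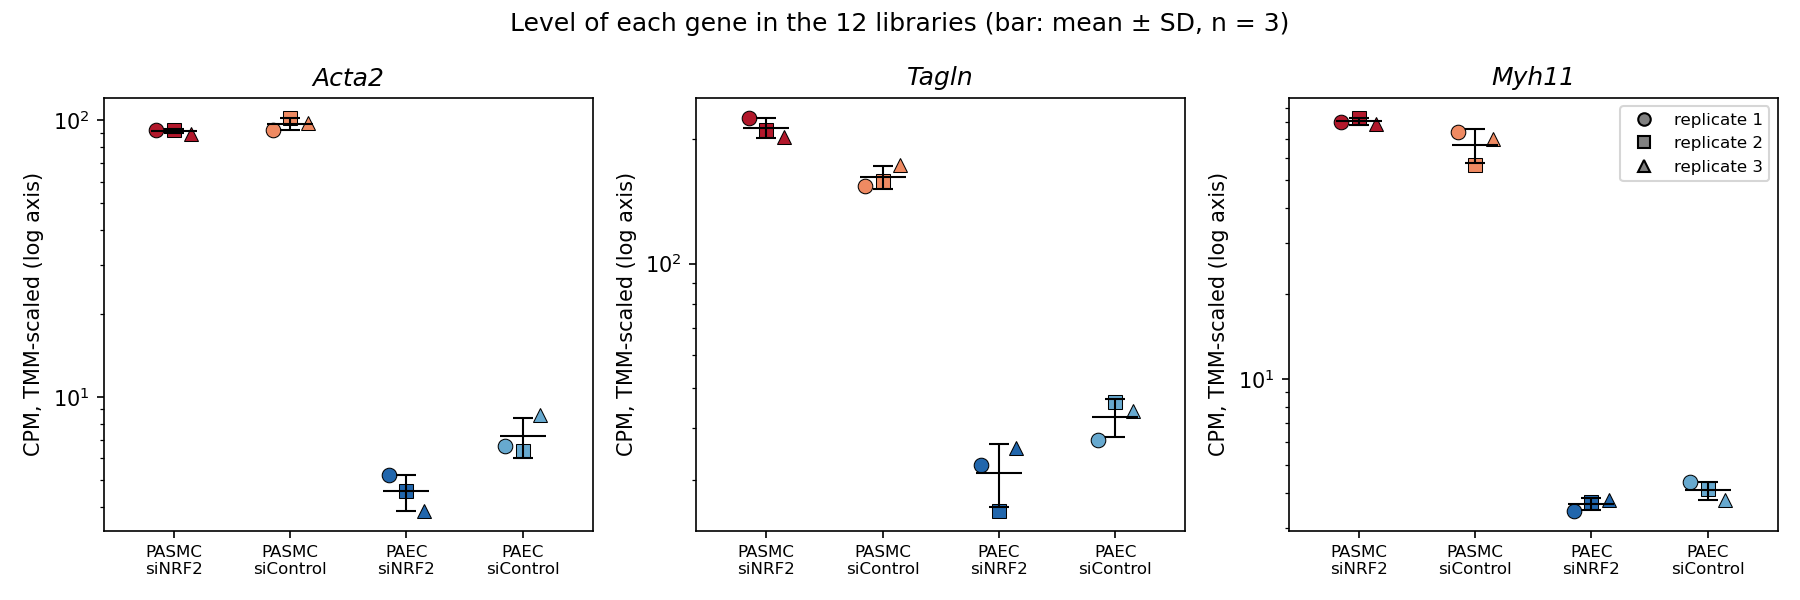
Level of Acta2, Tagln and Myh11 in CPM (log axis) in each library of PASMC siNRF2, PASMC siControl, PAEC siNRF2 and PAEC siControl; symbols mark the replicate, and bars give the mean ± SD of 3 libraries. PASMC lie above PAEC in every panel, Tagln is higher in PASMC siNRF2 than in PASMC siControl, and Acta2 is lower in PAEC siNRF2 than in PAEC siControl.

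The next comparison asked whether the siRNA against Nrf2 moved the contractile genes in smooth muscle cells. Tagln rose, with 202 to 225 CPM in the siNRF2 libraries and 154 to 173 CPM in the siControl libraries, and the groups did not overlap. Myh11 rose by less, at 78.9 to 83.0 CPM against 56.5 to 73.7 CPM, also without overlap. Acta2 did not pass the test, at 91.1 ± 1.53 CPM in siNRF2 and 97.0 ± 5.11 CPM in siControl (mean ± SD, n = 3). Thus 2 of the 3 genes were called, both higher, where 30.7% of 14584 genes tested were called in PASMC and 16.1% were called higher. The share of all tested genes whose groups did not overlap was not counted.

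For Tagln the log2 fold change in PASMC was 0.39 (SE 0.10, 95% interval 0.15 to 0.63, edgeR adjusted p = 0.0081, n = 3 per group), or 1.31-fold. Of all tested genes, 18.9% had a higher log2 fold change. For Acta2 it was -0.09 (SE 0.10, 95% interval -0.33 to 0.14, edgeR adjusted p = 0.55), so changes of up to 0.33 downwards or 0.14 upwards lie within the interval. The 3 genes had a median log2 fold change of 0.27, against 0.005 over all genes. This median is the value of Myh11, and 27.2% of tested genes had a higher one. Without regard to sign, the median log2 fold change over all genes was 0.31, so a change of this size was common.

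For Myh11 the log2 fold change was 0.27 (SE 0.099, 95% interval 0.04 to 0.50, edgeR adjusted p = 0.044), just past the threshold of 0.05. Scaled by library totals alone it was 0.23 with an adjusted p of 0.11. The siControl libraries spread from 56.5 CPM in replicate 2 to 73.7 CPM in replicate 1. Without PASMC siControl replicate 2 the log2 fold change was 0.17 (edgeR adjusted p = 0.22). The call was lost on leaving out any 1 of 10 libraries, the 3 of PASMC siNRF2 and the 6 of PAEC among them, with adjusted p from 0.053 to 0.22. It was kept without PASMC siControl replicate 1 (0.35, adjusted p = 0.027) and without PASMC siControl replicate 3 (0.31, adjusted p = 0.049). The rise of Tagln kept its call without any 1 of the 12 libraries, with adjusted p from 0.0031 to 0.043. It lost it (0.41, SE 0.15, edgeR adjusted p = 0.057) when reads that may belong to an overlapping gene were subtracted. That subtraction is described with the positions of the genes. The estimate did not shrink, while the SE rose from 0.10. The subtraction took 4.64% to 6.04% of Tagln counts in PASMC libraries and 28.7% to 39.7% in PAEC libraries. The fit uses 1 estimate of the spread of a gene for all groups.

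Other features of the PASMC libraries moved with the siRNA. Mitochondrial genes of at least 200 bases took 1.47%, 1.75% and 1.58% of counts in siNRF2, against 2.94%, 3.32% and 2.67% in siControl. The slope of log2 level on log2 local gene density was 0.0871, 0.0440 and 0.0531 in siNRF2, against -0.0594, -0.0840 and -0.0409 in siControl. Acta2 had 20, Tagln 19 and Myh11 12 genes, itself included, with their midpoints within 500 kb. With the trend of each library with gene density taken out, the log2 fold change in PASMC was 0.43 for Tagln (edgeR adjusted p = 0.0045), 0.40 for Myh11 (adjusted p = 0.0064) and -0.07 for Acta2 (adjusted p = 0.63). The part of the mitochondrial share in these values was not tested.

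In endothelial cells the siRNA was compared with its control in the same way. Acta2 fell, with 3.87 to 5.22 CPM in PAEC siNRF2 against 6.37 to 8.56 CPM in PAEC siControl, and Tagln fell, with 25.3 to 35.9 CPM against 37.5 to 46.3 CPM. Neither gene overlapped between the groups, and the share of all tested genes without overlap was not counted. Myh11 did not pass the test, at 3.65 ± 0.172 CPM in siNRF2 and 4.07 ± 0.292 CPM in siControl (mean ± SD, n = 3), where the highest siNRF2 library lay just above the lowest siControl library. Of the 3 genes, 2 were called, both lower, where 24.7% of 14584 genes tested were called in PAEC and 13.2% were called lower.

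The log2 fold change of Acta2 in PAEC was -0.66 (SE 0.13, 95% interval -0.96 to -0.36, edgeR adjusted p = 0.00097), the largest siRNA effect of the 3 genes in either cell type, and 11.2% of tested genes had a lower value. It rests on 139, 123 and 112 counts in siNRF2 and 188, 169 and 239 counts in siControl. Fitted on the 6 PAEC libraries alone it was again -0.66, with an SE of 0.23 and an edgeR adjusted p of 0.053. The SE of 0.13 rests on 1 estimate of spread shared with PASMC. There the SD of Acta2 CPM was 1.68% and 5.26% of the mean in siNRF2 and siControl, against 14.8% and 16.6% in PAEC. Each PASMC library held at least 2967 counts of Acta2, so counting noise is a larger part of the spread in PAEC. The fit allows for counting noise, and its part in these percentages was not worked out. For Tagln the log2 fold change was -0.44 (SE 0.11, 95% interval -0.70 to -0.19, edgeR adjusted p = 0.0059), and -0.45 (adjusted p = 0.062) with the same subtraction. For Myh11 it was -0.16 (SE 0.13, 95% interval -0.46 to 0.15, edgeR adjusted p = 0.43). The median of the 3 genes was -0.44, the value of Tagln, against 0 over all genes, and 17.7% of tested genes had a lower value. Without regard to sign, the median log2 fold change over all genes was 0.27.

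Features of the PAEC libraries moved with the siRNA as well. The 10 genes with the most counts took 13.3%, 12.8% and 13.2% of counts in PAEC siNRF2, against 11.4%, 11.2% and 11.6% in PAEC siControl, with no overlap. The mitochondrial share was 4.79%, 4.39% and 4.63% in siNRF2, against 3.22%, 3.76% and 4.52% in siControl, which overlapped, and the means differed in the opposite direction to PASMC. The gene density slopes, at -0.0434, 0.00236 and -0.0226 in siNRF2 against 0.0588, 0.0327 and -0.0278 in siControl, overlapped too. With the gene density trend taken out, the log2 fold change in PAEC was -0.67 for Acta2 (edgeR adjusted p = 0.00053) and -0.46 for Tagln (adjusted p = 0.0037). The part of the other features in the PAEC values and in the difference between cell types was not tested.

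The siRNA effects in the cell types were compared directly as an interaction, the effect in PASMC minus that in PAEC. Tagln differed most, rising in PASMC and falling in PAEC, by 0.83 on the log2 scale (SE 0.15, 95% interval 0.48 to 1.18, edgeR adjusted p = 0.00064). Acta2 differed by 0.57 (SE 0.17, 95% interval 0.19 to 0.95, adjusted p = 0.015, edgeR), with -0.09 in PASMC and -0.66 in PAEC. Without PAEC siNRF2 replicate 3, the library with the lowest Acta2 level, the difference was 0.46 with an adjusted p of 0.058. Myh11 differed by 0.43 (SE 0.16, 95% interval 0.05 to 0.81 before adjustment, edgeR adjusted p = 0.058), which did not pass after adjustment over all genes. Leaving out PASMC siControl replicate 1 gave Myh11 0.50 (adjusted p = 0.036), leaving out PAEC siControl replicate 3 gave 0.48 (adjusted p = 0.048), and taking out the gene density trend gave 0.60 (adjusted p = 0.014). Of the 3 genes, 2 were called, where 29.1% of all tested genes were called and 15.4% in this direction. The same interaction is the amount by which the gap between PASMC and PAEC was wider under siNRF2 than under siControl.

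**Figure D3:**
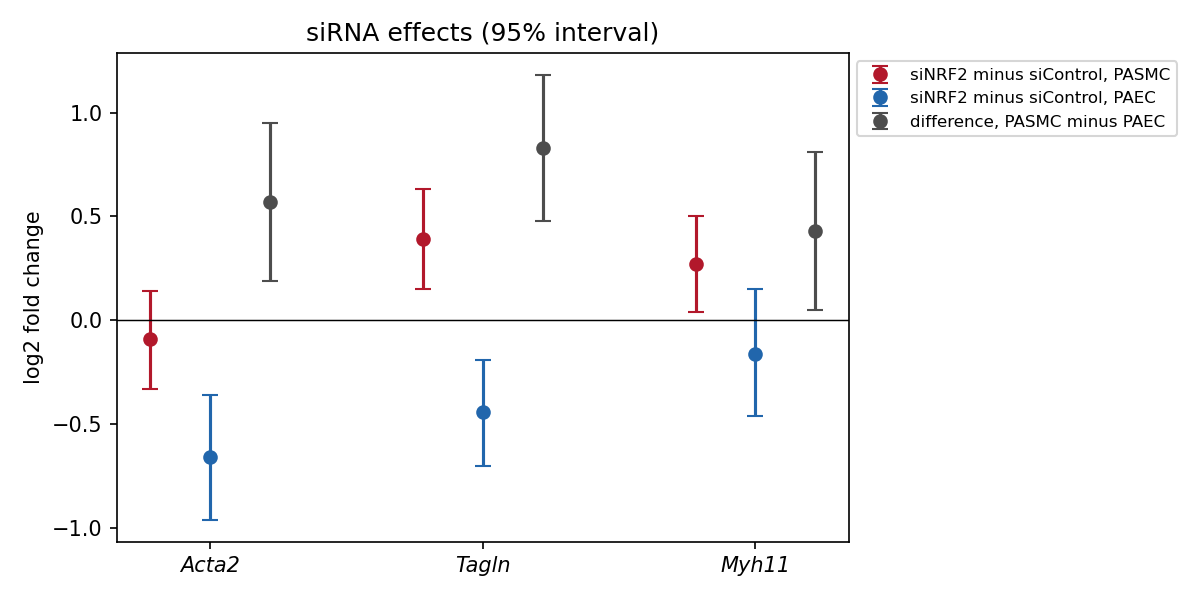
Log2 fold change of siNRF2 over siControl in PASMC (red) and PAEC (blue), and the difference of these effects (grey), for Acta2, Tagln and Myh11; points are edgeR estimates and bars 95% intervals. Tagln lies above 0 in PASMC (0.39) and below 0 in PAEC (-0.44), Acta2 lies near 0 in PASMC (-0.09) and below it in PAEC (-0.66), and Myh11 has the smallest difference (0.43).

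As the genes moved by different amounts, their proportions were compared within each library, without a test. In PASMC the level of Tagln per Acta2, as a ratio of RPKM, was 2.71, 2.53 and 2.51 in siNRF2, against 1.86, 1.72 and 1.97 in siControl. These groups did not overlap. Acta2 per Myh11 was 5.53, 5.33 and 5.45 in PASMC siNRF2, against 5.99, 8.72 and 6.68 in PASMC siControl, again without overlap, with the siControl spread set by replicate 2. In PAEC the ratio of Tagln to Acta2 was 6.93, 6.13 and 10.3 in siNRF2, against 6.27, 8.06 and 5.70 in siControl, and the groups overlapped. Acta2 per Myh11 was 7.27, 5.92 and 4.94 in PAEC siNRF2, against 7.35, 7.46 and 11 in PAEC siControl, narrowly without overlap. PAEC thus held more Tagln relative to Acta2 than PASMC in every library, whereas the ratio of Acta2 to Myh11 overlapped between the cell types.

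**Figure D4:**
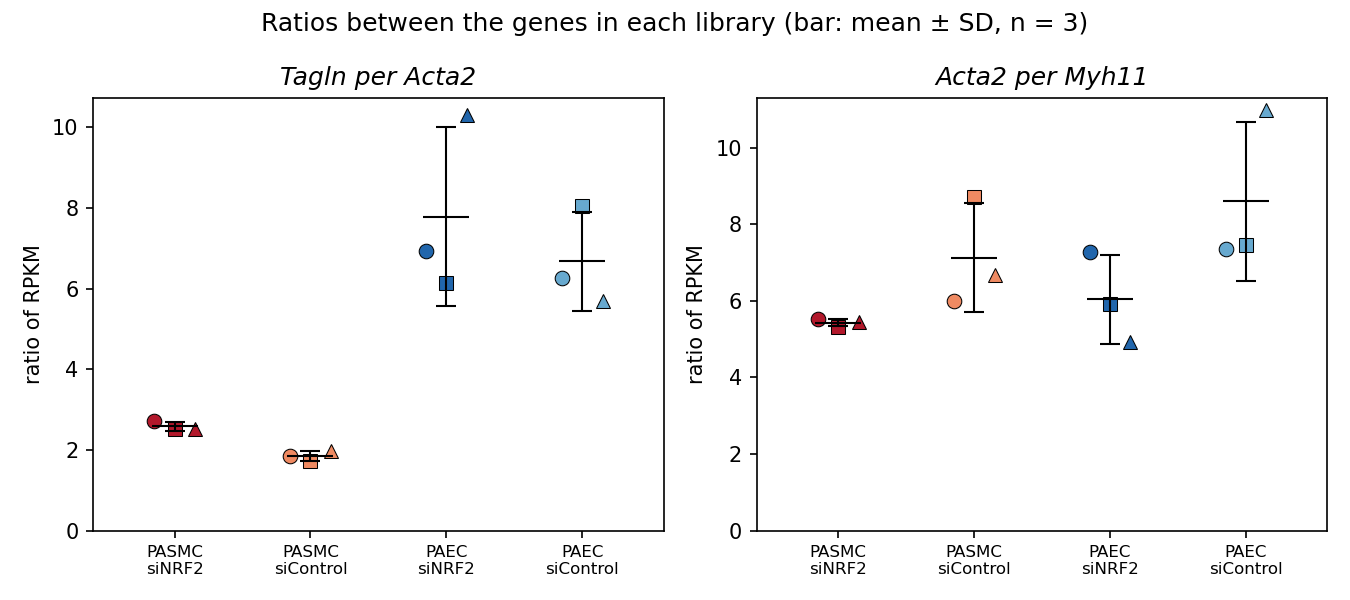
Ratio of RPKM of Tagln to Acta2 (left) and of Acta2 to Myh11 (right) in each library of the 4 groups, with symbols for replicates as in the plot of levels and bars for the mean ± SD of 3 libraries. Tagln per Acta2 is 2.51 to 2.71 in PASMC siNRF2, 1.72 to 1.97 in PASMC siControl and 5.70 to 10.3 in PAEC.

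The positions of the genes bear on how their reads could be counted. Coordinates are those of the count table, counted from 1, and no source used here gives its genome build. Acta2 lies at 252537615 to 252550394 of chromosome 1, minus strand, with 10 exons totalling 1391 bases. Myh11 lies at 764421 to 859184 of chromosome 10, plus strand, with 43 merged exons totalling 6693 bases. Neither span overlaps that of another gene of the table, whatever its level. The coding sequence of Acta2 closely resembles that of other actin genes, so its count depends on the treatment of multiply matching reads, which is not stated.

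Tagln lies at 50222896 to 50231357 of chromosome 8, minus strand, with 6 merged exons totalling 1254 bases, and it shares one exon with a neighbour. The outermost exon, at 50231154 to 50231357, lies 2784 bases beyond the others. All 204 of its bases are exonic in a gene on the same strand at 50230339 to 50246656. Without that exon Tagln spans 5474 bases, against 5475 in RefSeq. The labels name a counting tool but not whether reads in shared exons were dropped, assigned to both genes or assigned to one.

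That neighbour drew more counts than Tagln in every library. It averaged 234 ± 9.85 CPM in PASMC siNRF2, 219 ± 5.20 in PASMC siControl, 235 ± 5.69 in PAEC siNRF2 and 318 ± 24.0 in PAEC siControl (mean ± SD, n = 3). It also moved like Tagln in PAEC, where its log2 fold change was -0.43 (SE 0.070, edgeR adjusted p = 0.00014), while in PASMC it did not pass the test, at 0.09 (SE 0.069, adjusted p = 0.34). The difference between its effects, PASMC minus PAEC, was 0.53 (SE 0.098, edgeR adjusted p = 0.00074), in the same direction as that of Tagln. If its reads lay evenly over its 4741 exon bases, those in the shared exon would equal 28.7% to 39.0% of the Tagln count in PAEC siNRF2 libraries and 28.8% to 39.7% in PAEC siControl libraries. In PASMC they would equal 4.64% to 4.91% in siNRF2 and 5.59% to 6.04% in siControl.

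Subtracting that even share from Tagln, an alternative chosen after the data were seen, left the size of the siRNA effects nearly as they were. The log2 fold change was 0.41 in PASMC (SE 0.15) and -0.45 in PAEC (SE 0.16). Without the subtraction the SEs were 0.10 and 0.11. Their edgeR adjusted p became 0.057 and 0.062, so neither call held. The difference between the cell types remained called, at 0.85 (SE 0.22, edgeR adjusted p = 0.011). The sizes could hardly have moved, so their stability is no test of whether shared reads matter. In PAEC the neighbour's log2 fold change was -0.43 and that of Tagln -0.44, with a similar share removed from both groups. In PASMC the share removed was at most 6.04% of the Tagln count. Tagln in PASMC over PAEC became 3.25 under siNRF2 and 2.40 under siControl on the log2 scale (adjusted p = 6.5e-10 and 1.4e-08), still below Acta2 and Myh11.

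**Figure D5:**
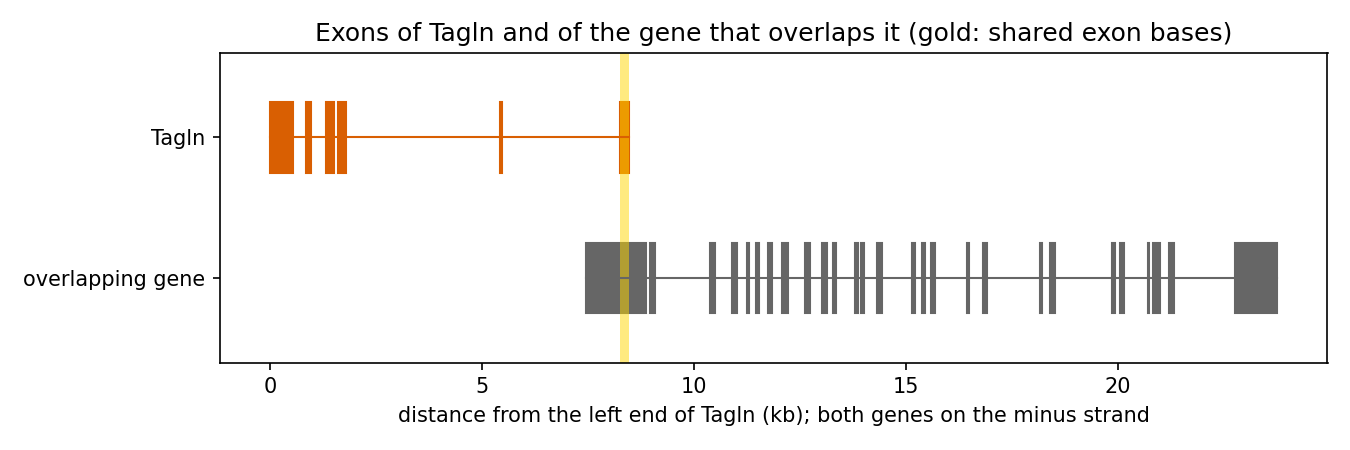
Exons (boxes) of Tagln and of the neighbouring gene on the same strand, drawn to scale by distance in kb from the left end of Tagln, with the shared exon bases in gold. The shared exon is the outermost of Tagln's 6 and lies 2784 bases from the next.

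The genes most like each of the 3 were then looked up by the Pearson correlation of log2 CPM over the 12 libraries, among 11390 genes with a mean log2 CPM of at least 1. These libraries fall into separate cell types, so the correlations mainly reflect the gap between PASMC and PAEC. The gene most like Acta2 was ENSRNOG00000033883 (chromosome X, 68713123 to 68785052, plus strand, r = 0.997). It averaged 75.3 CPM in PASMC siNRF2, 73.8 in PASMC siControl, 2.46 in PAEC siNRF2 and 4.91 in PAEC siControl. The likest to Tagln was ENSRNOG00000009912 (chromosome 5, 151172206 to 151199745, plus strand, r = 0.997), at 45.0, 36.1, 9.71 and 13.1 CPM in the same order of groups. Its log2 fold change of siNRF2 over siControl was 0.32 in PASMC and -0.43 in PAEC, which follows from its choice by likeness to Tagln. The likest to Myh11 was ENSRNOG00000051257 (chromosome X, 74333329 to 74337975, minus strand, r = 0.998), with 0 counts in every PAEC library and at least 1883 in every PASMC library.

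With each cell type centred on its own mean, so that the gap between cell types no longer counts, the 3 genes were less alike. Pearson's r over the 12 libraries was 0.552 between Tagln and Myh11, 0.461 between Tagln and Acta2 and 0.0344 between Acta2 and Myh11. For Acta2, the likest gene by this measure was one on chromosome 4 at 23090029 to 23135354 (r = 0.952), at 1030 and 1130 CPM in PASMC siNRF2 and siControl and 135 and 227 CPM in PAEC siNRF2 and siControl. For Tagln it was again ENSRNOG00000009912 (r = 0.943). For Myh11 it was a gene on chromosome 3 at 123595560 to 123607352 (r = 0.945), which was lower in PASMC than in PAEC under siControl (log2 fold change -1.05). These correlations describe the same libraries, which share their depth and scaling, and say nothing of shared function.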

How the data were processed

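RNA-seq gene counts were analysed for 12 libraries, 3 in each of 4 groups taken from the sample titles. Per the labels' protocols, libraries were made from Trizol-extracted RNA with a directional kit. The authors deposited raw counts, as whole numbers for each gene, with exon coordinates and length. The tools named in the submitters' processing notes are featureCounts 2.0.3, HISAT2 2.0.5 and DESeq2 1.32.0, with no settings. Build and strand setting: not given in the sources used here. Columns left unused numbered 0.

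The members and lists were chosen with earlier results of these data known. Of 32883 identifiers, 0 matched a symbol, so the 6 lists fixed by symbol were not run. Named genes are the 3 members, genes overlapping them (named from 0.5 CPM, though all genes were searched) and the gene likest to each, some given by position only. Genes were kept by filterByExpr (14584 genes), scaled by TMM, and fitted over all 12 libraries with edgeR 4.0.16 in R 4.3.3 (8 residual degrees of freedom). All p-values are two-sided and adjusted over all genes, and calls are at 0.05. SEs were derived from F statistics. Intervals are at 95% from a t distribution with 8 degrees of freedom, fewer than the edgeR test uses after pooling over genes. They are therefore wider than that test implies. CPM and RPKM use TMM library sizes. A prior count of 2 went into log2 CPM. Alternatives used library totals, DESeq2 1.42.0, limma 3.58.1 (voom), no filter, fewer groups, a replicate block, a gene density offset, single libraries left out, and a subtraction for Tagln. No replicates were duplicates (mean chi-square per gene 9.09 to 42.3). The fit was tested on simulated data.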

Additional observations from a re-analysis of the deposited data

Results flagged for a closer look

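The effect of the siRNA differed between the cell types for Tagln and for Acta2 when the difference itself was tested. Of 14584 genes tested, 29.1% were called for this difference and 15.4% in this direction, so such a call was common. How many tested genes separate by library as described here was not counted. For Tagln the effect in PASMC exceeded that in PAEC by 0.83 on the log2 scale (edgeR adjusted p = 0.00064), with all 3 PASMC siNRF2 libraries above all 3 PASMC siControl libraries and all 3 PAEC siNRF2 libraries below all 3 PAEC siControl libraries. For Acta2 the difference was 0.57 (edgeR adjusted p = 0.015), with -0.09 in PASMC and -0.66 in PAEC, where all 3 siNRF2 libraries lay below all 3 siControl libraries. The Acta2 difference did not pass with limma voom (adjusted p = 0.063) or without PAEC siNRF2 replicate 3 (0.46, edgeR adjusted p = 0.058). Fitted on the PAEC libraries alone, the Acta2 effect in PAEC did not pass either (edgeR adjusted p = 0.053). With an assumed even share of the neighbour's reads subtracted from Tagln, the Tagln difference was 0.85 (adjusted p = 0.011), while its effects in PASMC (0.41, adjusted p = 0.057) and in PAEC (-0.45, adjusted p = 0.062) no longer passed. The neighbour's own difference was 0.53 (edgeR adjusted p = 0.00074). The subtraction could hardly move the size of the Tagln effects, so it is no test of the part of shared reads.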

How the results depend on the processing

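For the 3 genes in 5 comparisons, 291 values were recomputed under the alternatives and 0 changed direction. The subtraction for Tagln leaves the counts of Acta2 and Myh11 as they are, so their values could hardly move there. For the 12 results that had passed the test, 215 of 232 values still passed and 17 did not. For the 3 that had not (Acta2 in PASMC, Myh11 in PAEC and the Myh11 difference), 56 of 59 values still did not pass and 3 did. Every PASMC over PAEC value kept its call in all of them, so the 17 losses all fell among the siRNA results. The 232 include those PASMC over PAEC values, whose adjusted p was at most 1.4e-08, so the share kept was lower among the siRNA results alone. Myh11 in PASMC lost its call in 10 fits with a single library left out and under 2 other alternatives. With only the 2 groups compared in the fit, Acta2 in PAEC was -0.66 (adjusted p = 0.053), leaving 1 gene called in PAEC. With limma voom the Acta2 difference between cell types was 0.57 (adjusted p = 0.063), leaving 1 gene called. With library totals Myh11 in PASMC was 0.23, leaving 1 gene called there. With the gene density offset the Myh11 difference was 0.60 and 3 genes were called. With the assumed even share of the neighbour's reads subtracted, Tagln was 0.41 in PASMC and -0.45 in PAEC, leaving 1 gene called in each. With all libraries kept, the alternatives called 3986 to 4940 of all genes in PASMC, against 4479 in the main fit. They called 3168 to 4031 in PAEC (main fit 3607) and 3773 to 4703 for the difference (main fit 4239). The causes were not tested.

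Leaving out single libraries gave 0.17 to 0.35 for Myh11 in PASMC (past the threshold in 2 of 12), 0.32 to 0.50 for the Myh11 difference (past it in 2 of 12) and 0.42 to 0.68 for the Acta2 difference (past it in 11 of 12). The number of the 3 genes called then ranged from 1 to 2 in PASMC and from 1 to 3 for the difference between cell types, and was 2 in PAEC throughout. Over all genes, 3134 to 4716 were then called in PASMC, 3310 to 4793 for the difference and 2721 to 3705 in PAEC. A group left with 2 libraries is assumed to vary like the others.

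Same-numbered siNRF2 and siControl libraries did not deviate together (r = -0.0255 to 0.122 in PASMC and -0.0518 to 0.0266 in PAEC), and 2 of 6 libraries in each cell type correlated best with their own number. With the replicate number as a block, Myh11 in PASMC was 0.28 (edgeR adjusted p = 0.062), leaving 1 of the 3 genes called there, among 4286 genes called in all. The block changed no other call of the 3 genes. Depth limits Acta2 and Myh11 in PAEC, at 92 to 239 counts per library.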
